A study of Mus musculus with 6 samples.

Results

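The cell cycle genes described here were 44 genes of DNA replication and mitosis, looked up by symbol among the 31053 genes of the count matrices of both tissues. All 44 were found, and UMIs (unique molecular identifiers, which count captured transcripts) were summed over cells with at least 200 detected genes and no upper limit on genes. Single-cell RNA-seq libraries had been made from kidneys of 12-week-old male C57BL/6 mice and from mammary tumors of 10-week-old female MMTV-PyMT mice, in which the mammary tumor virus promoter drives the polyoma middle T oncogene. Each tissue gave 3 libraries, namely cells from a conventional 60 min digest (control) and cells eluted at the 15 min and 60 min intervals of a microfluidic digestion platform. All 6 had been minced, digested with type I collagenase, treated with DNase and red cell lysis buffer, and sorted for live cells that excluded SytoxBlue. Each condition was 1 library. The study's reporting notes say that sequencing was not replicated and that the conditions of a replicate shared the tissue of 1 mouse, so no test between conditions was possible and a difference between libraries had no replicate check.

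A cell that is about to divide passes through G1, copies its DNA in S phase, and separates the copies in mitosis (M) after a second gap, G2. The licensing factors Cdc6 and Cdt1 load the Mcm2-7 helicase onto replication origins, E cyclins and their kinase trigger firing, and the sliding clamp Pcna and enzymes of deoxynucleotide synthesis sustain the forks. Cdk1 with A and B cyclins then drives entry into mitosis, in which kinetochore proteins, the chromosomal passenger complex and motors align the chromosomes until the anaphase-promoting complex with Cdc20 releases them. E2F factors activate many S-phase genes, while the MuvB complex acts on many mitotic genes through a short promoter element, the CHR. In an adult kidney most tubule cells are out of the cycle, whereas MMTV-PyMT tumors grow fast.

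Promoter sequences are shown for replication genes (Mcm5, Mcm6) and for mitotic genes with large differences between the tissues (Cdc20, Ccnb2, Top2a). Spc25 and Tyms are also shown, which together with Stmn1 had the highest levels of the 44 genes in kidney proximal tubule cells. Each line gives 150 bases that end just before the transcription start (for Cdc20, 9 bases before the RefSeq start), taken from the RefSeq promoter table of mouse build GRCm38.p6, and capitals mark the words searched for on either strand. These were the CHR word TTTGAA and a variant form of it, TTCGAA, the box CCAAT bound by NF-Y, and the E2F words TTTCCCGC, TTTGGCGC, TTTCGCGC and TTTGCCGC.
Mcm5, chr8:75109359-75109508, plus strand: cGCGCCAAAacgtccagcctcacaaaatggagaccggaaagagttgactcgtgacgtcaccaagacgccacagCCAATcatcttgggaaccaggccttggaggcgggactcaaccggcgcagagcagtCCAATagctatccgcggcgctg
Mcm6, chr1:128359706-128359855, minus strand: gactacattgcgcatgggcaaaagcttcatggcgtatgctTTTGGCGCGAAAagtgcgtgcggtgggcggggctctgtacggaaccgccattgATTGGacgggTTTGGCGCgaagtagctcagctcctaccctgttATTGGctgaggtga
Cdc20, chr4:118437353-118437502, minus strand: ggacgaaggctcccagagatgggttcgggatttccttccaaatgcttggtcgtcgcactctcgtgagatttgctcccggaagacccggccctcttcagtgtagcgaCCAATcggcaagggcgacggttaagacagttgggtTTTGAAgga
Ccnb2, chr9:70421555-70421704, minus strand: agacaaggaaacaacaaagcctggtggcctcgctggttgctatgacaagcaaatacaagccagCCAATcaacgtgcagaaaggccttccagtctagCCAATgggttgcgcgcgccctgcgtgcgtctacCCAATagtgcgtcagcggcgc
Top2a, chr11:99024190-99024339, minus strand: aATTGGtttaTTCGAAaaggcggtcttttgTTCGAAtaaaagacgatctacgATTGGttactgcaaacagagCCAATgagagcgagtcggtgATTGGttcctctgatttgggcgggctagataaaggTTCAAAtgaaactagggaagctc
Spc25, chr2:69206214-69206363, minus strand: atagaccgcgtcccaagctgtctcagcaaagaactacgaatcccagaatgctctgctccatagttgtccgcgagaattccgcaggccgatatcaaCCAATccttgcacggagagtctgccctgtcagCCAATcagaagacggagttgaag
Tyms, chr5:30073626-30073775, minus strand: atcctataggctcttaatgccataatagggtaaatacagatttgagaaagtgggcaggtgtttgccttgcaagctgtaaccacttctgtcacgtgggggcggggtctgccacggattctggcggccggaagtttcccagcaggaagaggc
In the Mcm6 sequence, the first run of capitals holds 2 E2F words that overlap. The table held a promoter of 300 bases, 250 before the start and 50 after it, for 35 of the 44 genes and not for Aurkb, Ccna2, Ccne2, Gins2, Kif20a, Mcm4, Spc24, Stmn1 and Tpx2. A CHR word lay in 18 of the 35 windows (51.4%), against 19.4% of 27025 windows over all genes. It lay in 16 of 21 windows of the genes outside the replication lists (76.2%) and in 2 of 14 of the replication genes (14.3%). E2F words had the opposite split, in 7 of 14 replication genes (50%) and in 1 of the other 21, Cdk1, against 2.32% of all windows. CCAAT was in 28 of 35 (80%), against 37.9% of all windows, and Tyms alone of the 7 printed stretches held none of the words. A match of letters is a description of the sequence and not a binding site.

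Kept cells numbered 7888 to 13479 per kidney library and 7913 to 8025 per tumor library, with 68348013 to 114789575 UMIs per kidney and 90064126 to 100964727 per tumor library, medians of 5654 to 8412 and 8577 to 10525 UMIs per cell and 12.7 to 19.1% and 7.90 to 8.99% of UMIs from mitochondrial genes. Cells were assigned to types by gates, in which a cell took the type whose marker list had the highest share of detected genes, if at least 0.5. In each gate all markers of its list were detected in at least 10% of cells, with the exception of Cnn1 in the tumor's basal gate (9.68%). Proximal tubule cells made up 53.1, 86.7 and 36.4% of the control, 15 min and 60 min kidney cells, and luminal epithelial cells 59.4, 68.4 and 41.4% of the tumor cells. Barcodes shared between any 2 libraries were 0.159 to 1.75% of the smaller library. Fewer cells of a type and less RNA per cell cannot be told apart in a library's summed UMIs, and shares of UMIs are relative to all other genes.

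Summed over the 44 genes, the tumor libraries held more cell cycle UMIs than the kidney libraries. The sums, in UMIs per 1000000 UMIs of the library (CPM) with exact Poisson 95% intervals, were 290 (286 to 295), 187 (184 to 189) and 286 (283 to 290) in the kidney control, 15 min and 60 min libraries. The tumor sums were 809 (803 to 815), 793 (788 to 799) and 959 (953 to 965). Every tumor library was above every kidney library, the kidney 15 min library was lowest, and the tumor 60 min library was highest. These intervals cover the counting of UMIs only, and since few cells held many of these UMIs they understate the spread that sampling of cells adds.

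Of the 44 genes, 43 had all 3 tumor libraries above all 3 kidney libraries, where 41.4% of all 17492 genes compared did. The remaining one, Spc25, had all 3 kidney libraries above the tumor's, as did 24.8% of all genes. Under 4 alternatives in cells, scaling or libraries the number higher in the tumor ran from 34 to 43. The share of all genes was not recomputed for them. The ratio of mean tumor to mean kidney CPM had a median of 6.36 over the 44 genes, against 1.27 over all genes, and it ran from 1.28 (Mcm6) to 16.3 (Birc5) among the 43. Tissue, transgene, sex and age all differ between the 2 sets of libraries and cannot be told apart here. The background strain of the tumor mice is not stated.

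The licensing genes had the smaller tumor to kidney ratios, from 1.28 to 6.76. Mcm7, a helicase subunit, was at 13.8, 10.8 and 12.9 CPM in the kidney control, 15 min and 60 min libraries and at 25.3, 25.8 and 24.4 CPM in the tumor. Mcm6 was at 11.0, 7.99 and 13.2 CPM against 14.1, 13.2 and 13.7 CPM, so that the highest kidney and lowest tumor library nearly met. Mcm3 was at 6.91, 2.44 and 9.91 CPM in kidney and at 14.8, 13.5 and 17.9 CPM in the tumor. In all 3 the kidney 15 min library was the lowest of the 6. Among the other 6 licensing genes, Gins2, a subunit of the active helicase, had the largest tumor to kidney ratio, 6.76, and Mcm2 the smallest, 2.14.

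At the fork, Tyms, which makes thymidylate, was almost level between tissues, at 27.7, 26.7 and 25.4 CPM in kidney and 32.3, 32.4 and 40.3 CPM in the tumor. Pclaf, a factor bound to Pcna, differed far more, with 5.93, 1.96 and 7.68 CPM in kidney and 42.6, 36.2 and 46.6 CPM in the tumor. Pcna itself was at 18.3, 9.28 and 18.9 CPM in kidney and at 31.6, 21.4 and 28.9 CPM in the tumor. In both tissues its 15 min library was the lowest. The other 4 genes of this list had ratios of 3.95 (Rrm1) to 9.15 (Uhrf1). The E cyclin Ccne1 was at 0.512, 0.296 and 0.626 CPM in kidney and at 3.79, 4.12 and 4.02 CPM in the tumor. Ccne2 lay closer together, at 0.688, 0.531 and 0.984 CPM against 1.98, 1.56 and 1.72 CPM.

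The 7 mitotic kinases and cyclins and the 4 genes of the checkpoint and anaphase-promoting complex had larger ratios, all between 6.14 and 15.6. Cdk1, the mitotic kinase, was at 2.71, 0.967 and 2.70 CPM in kidney and at 22.6, 23.4 and 31.4 CPM in the tumor. Its partner Ccnb2 was at 2.33, 0.680 and 2.15 CPM against 15.0, 14.2 and 20.4 CPM. The second B cyclin, Ccnb1, was at 1.26, 0.505 and 0.823 CPM against 9.47, 10.9 and 13.5 CPM. All 3 were lowest in the kidney 15 min library and highest in the tumor 60 min library. Ube2c, the ubiquitin-conjugating enzyme of the anaphase-promoting complex, was at 5.05, 0.662 and 3.93 CPM in kidney and at 51.2, 41.0 and 58.0 CPM in the tumor. Its activator Cdc20 was at 2.004, 0.775 and 1.54 CPM against 18.3, 18.0 and 24.4 CPM. The checkpoint kinase Bub1b was at 0.980, 0.209 and 1.02 CPM against 4.01, 4.34 and 5.21 CPM. Again the kidney 15 min library was the lowest of the 6.

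The kinetochore and passenger list held both extremes of the 44 genes. Birc5 (survivin), a subunit of the passenger complex, was at 5.09, 1.70 and 4.45 CPM in kidney and at 50.9, 58.0 and 74.4 CPM in the tumor. Spc25, a subunit of the Ndc80 kinetochore complex, was at 25.9, 23.99 and 20.8 CPM in kidney and only at 6.62, 7.29 and 7.96 CPM in the tumor, a ratio of 0.309. Cenpa, the centromeric histone, was at 11.1, 2.06 and 13.8 CPM in kidney and at 38.1, 25.2 and 42.6 CPM in the tumor. The kidney 15 min library was thus the lowest for Birc5 and Cenpa but not for Spc25, which had its lowest kidney value in the 60 min library.

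Stmn1, which destabilises microtubules and held the most UMIs of the 44 genes in both tissues, was at 69.99, 53.5 and 61.3 CPM in kidney and at 116, 115 and 125 CPM in the tumor. The spindle assembly factor Tpx2 was at 1.78, 0.427 and 1.48 CPM against 11.3, 11.8 and 17.7 CPM. The spindle protein Nusap1 was at 4.11, 2.88 and 4.44 CPM against 8.98, 10.1 and 12.1 CPM. All 3 were lowest in the kidney 15 min library, by the least for Stmn1. Mki67, which coats mitotic chromosomes and is a widely used marker of proliferation, was at 6.20, 1.25 and 7.70 CPM in kidney and at 31.8, 34.9 and 34.9 CPM in the tumor. Top2a, the topoisomerase that disentangles DNA copies, was at 6.03, 1.06 and 6.91 CPM against 32.3, 33.5 and 40.3 CPM. The plot of all genes by library shows the 3 kidney values left of the 3 tumor values in every row but that of Spc25.

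**Figure D1:**
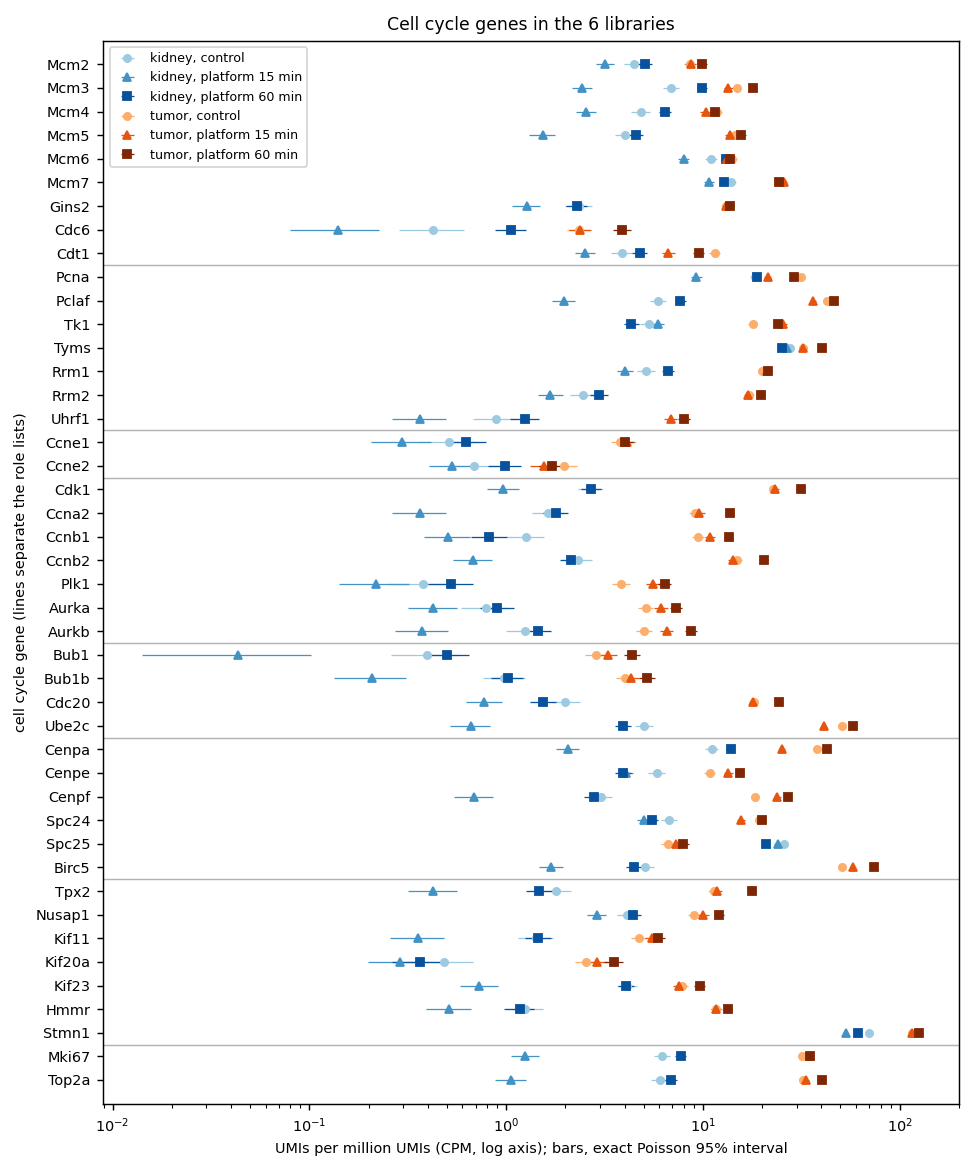
Level of each of the 44 cell cycle genes in the 6 libraries, in CPM on a log axis, with exact Poisson 95% intervals as bars and horizontal lines between the role lists. Blue kidney symbols lie left of orange tumor symbols for 43 genes, and Spc25 is the exception.

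The balance of S to G2/M genes also differed between the tissues. The 16 replication genes (licensing, fork and nucleotide lists) gave 1.15, 1.64 and 1.32 UMIs for each UMI of 25 G2/M genes (mitotic lists without Stmn1) in the kidney control, 15 min and 60 min libraries. In the tumor the ratios were 0.711, 0.663 and 0.597. All kidney ratios were above 1 and all tumor ratios below 1. Without Pcna, Rrm1 and the Mcm genes, which cells outside the cycle can also express, the kidney ratios were 0.480, 0.807 and 0.516. The tumor ratios were then 0.361, 0.347 and 0.320. The study also set gene and mitochondrial limits for cells (at most 3000 genes in kidney and 4000 in tumor). Within these limits the kidney ratios were 1.43, 1.74 and 1.58 and the tumor ratios 0.925, 1.02 and 0.9001. Every kidney ratio was thus above every tumor ratio in both alternatives, but the split at 1 did not hold.

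Most cells held none or 1 of the 44 genes, and a small set held many. After each cell was thinned to 2000 UMIs, 60.2 to 73.1% of cells in a library held no member. Cells with at least 5 members (multi-member cells) numbered 43, 23 and 71 in the kidney control, 15 min and 60 min libraries, or 0.612, 0.206 and 0.592% of the cells deep enough to be thinned. In the tumor they were 367, 341 and 454 cells, or 5.33, 4.49 and 6.15%. Every tumor share was above every kidney share, and the kidney 15 min share was the lowest.

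These few cells carried much of the signal in the tumor and less of it in the kidney. They held 63.1, 67.4 and 70.7% of all member UMIs in the tumor control, 15 min and 60 min libraries, and 25.9, 11.5 and 26.3% in the kidney's. They were larger than other cells, with medians of 16076 to 19218 UMIs against 9851 to 10752 in the tumor and 11627 to 16777 against 6367 to 8643 in kidney, counted before thinning. In the tumor 39.8, 57.2 and 50.2% of them exceeded the study's gene limit of 4000, against 15.4 to 19.7% of other cells. In kidney 62.8, 47.8 and 62.0% exceeded the limit of 3000, against 22.1 to 24.6% of other cells. With both of the study's limits applied, on genes and on mitochondrial UMIs, their shares were 0.317, 0.149 and 0.306% in kidney and 3.67, 2.40 and 3.69% in the tumor. No doublet caller was run. Cells that met the gates of 2 lineages were 4.90, 5.57 and 9.03% of the tumor's multi-member cells and 3.32 to 5.53% of its other cells, and the part of doublets in these shares was not tested.

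**Figure D2:**
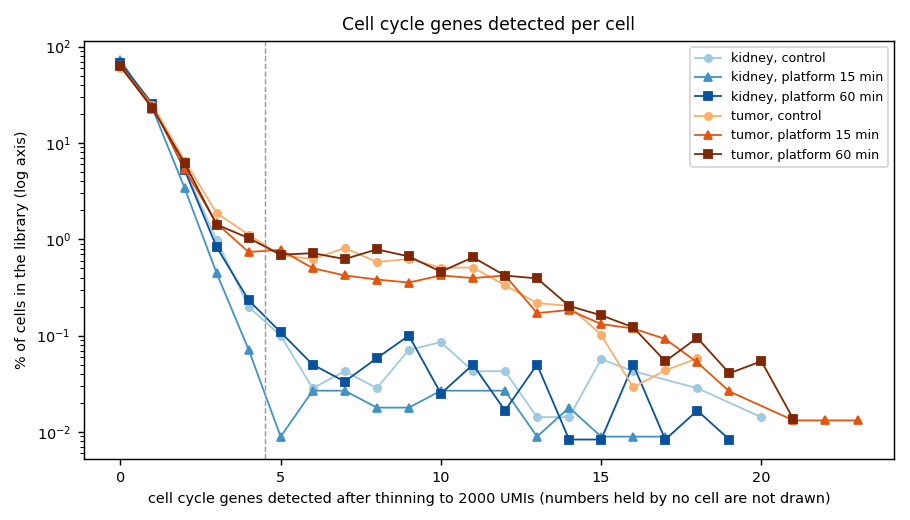
Share of cells, in percent on a log axis, that held each number of the 44 genes after thinning to 2000 UMIs, by library, with a dashed line below 5 genes. Each tumor line lies above each kidney line from 5 to 15 genes, beyond which cells are few and the lines cross, and the highest number is 23 genes in a cell.

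Within the multi-member cells, G2/M genes were more often ahead of S genes than behind them. More G2/M than S UMIs were held by 69.8, 47.8 and 60.6% of them in the kidney control, 15 min and 60 min libraries and by 65.1, 66.9 and 70.3% in the tumor. The kidney 15 min library, with 23 such cells, was the only one below 50%. The G2/M list has 25 genes and the S list 16, so 50% does not mark an even balance of the phases. By gate, the 1162 tumor cells were 538 luminal epithelial cells, 277 macrophages, 155 endothelial cells and 85 T lymphocytes, with the others in smaller gates or none. The 137 kidney cells were 29 T lymphocytes, 26 dendritic cells, 26 proximal tubule cells and 13 macrophages, with 31 in no gate.

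The summed level by gated cell type had dendritic cells, T lymphocytes and NK cells at the top in kidney. Not all immune cells were high, as granulocytes were at 173 CPM (95 cells over the 3 libraries). Over the 3 kidney libraries, dendritic cells were at 1256 CPM (241 cells), T lymphocytes at 1233 CPM (804 cells) and NK cells at 518 CPM (174 cells). B lymphocytes, macrophages and endothelial cells followed at 362, 309 and 240 CPM. Proximal tubule cells were at 193 CPM, and the lowest large gates were the distal convoluted tubule at 111 CPM and the loop of Henle at 88.9 CPM. Dendritic cells and T lymphocytes did not differ beyond their intervals (1220 to 1293 and 1203 to 1263 CPM), nor did proximal tubule and collecting duct principal cells (191 to 195 and 176 to 203 CPM). The share of multi-member cells was 11.2% in dendritic cells, 3.75% in T lymphocytes and 0.141% in proximal tubule cells, which nevertheless held 55.5% of all kidney member UMIs through their number.

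In the tumor several stromal and immune gates were above the luminal epithelial cells, and fibroblasts, monocytes and granulocytes were below them. NK cells were at 2551 CPM (48 cells), T lymphocytes at 1893 CPM (841 cells) and endothelial cells at 1670 CPM (1631 cells). Pericytes were at 2628 CPM (152 cells), a value that rested on the 60 min library, without which they were at 837 CPM (57 cells). Dendritic cells and macrophages were at 1337 and 1025 CPM, and luminal epithelial cells at 751 CPM (13488 cells). Fibroblasts, monocytes and granulocytes were lowest of the gates with at least 100 cells, at 340, 307 and 219 CPM. Luminal cells still held 55.9% of the tumor's member UMIs. Multi-member cells were 10.9% of T lymphocytes, 10.3% of endothelial cells, 7.60% of macrophages and 4.12% of luminal cells.

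**Figure D3:**
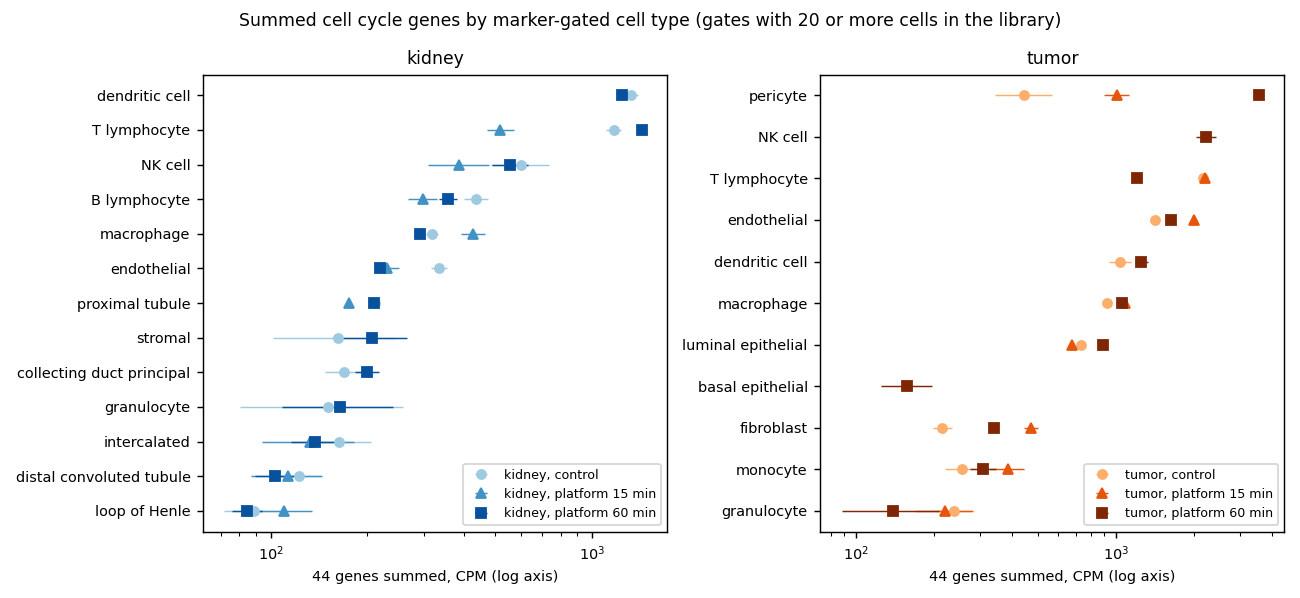
Summed level of the 44 genes by gated cell type and library, in CPM on log axes, with exact Poisson 95% intervals and gates of at least 20 cells in a library. Dendritic cells and T lymphocytes lead in kidney over the 3 libraries together. In the tumor, T lymphocytes and endothelial cells lie above luminal epithelial cells in every library, and pericytes do so at 15 and 60 min but not in the control.

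Some cell types had different levels in the 2 tissues. Tumor endothelial cells were 6.95 times as high as kidney endothelial cells (interval 6.73 to 7.17), and tumor macrophages 3.31 times as high as kidney macrophages (3.22 to 3.41). NK cells, with 48 cells in the tumor, differed by 4.93 times, T lymphocytes by 1.54 times and dendritic cells by 1.06 times (1.01 to 1.12). These ratios pool the libraries of a tissue, and single libraries overlapped in the latter 2 types. T lymphocytes in the control, 15 min and 60 min libraries were at 2173, 2199 and 1212 CPM in the tumor and at 1167, 519 and 1431 CPM in kidney. Dendritic cells were at 1038 CPM in the tumor control against 1326 CPM in the kidney control, and at 1256 against 1238 CPM at 60 min. The intervals of the pooled ratios included 1 for granulocytes, at 1.27 (0.9299 to 1.76), and for B lymphocytes, at 0.552 (0.264 to 1.02) on 11 tumor cells. In the tumor, Top2a in endothelial cells was at 77.4, 115 and 71.0 CPM in the control, 15 min and 60 min libraries, against 8.07, 0 and 2.13 CPM in kidney endothelial cells. Mki67 in them was at 53.3, 103 and 48.1 CPM against 7.47, 0 and 0.957 CPM. The value of 0 in the kidney 15 min library is a count of 0 among 2121263 UMIs of 432 cells, which allows up to 1.74 CPM at the upper 95% bound.

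Single members followed the cycling gates to different degrees. In kidney, 22 of the 44 genes were highest in dendritic cells and 16 in T lymphocytes among the 11 gates with at least 100 cells. Mki67 was at 89.5 CPM in dendritic cells, 48.3 in T lymphocytes and 1.18 in proximal tubule cells. Pclaf was at 99.8 and 80.1 CPM in dendritic cells and T lymphocytes, and at most at 6.52 CPM in B lymphocytes, macrophages, endothelial and proximal tubule cells. Cenpa departed from this order, with its highest level in B lymphocytes (105 CPM), in which Mki67 was at 1.62 and Top2a at 4.04 CPM. Mcm3 was at 36.4 CPM in kidney endothelial cells and 0.663 CPM in proximal tubule cells, although the Top2a levels of both were under 3 CPM.

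Among the 8 tumor gates with at least 100 cells, 29 members were highest in pericytes, among them Cdk1 at 144 CPM and Ube2c at 239 CPM, and 13 in T lymphocytes, among them all 6 Mcm genes and Pclaf at 155 CPM. The 13 genes led by T lymphocytes were all of the licensing, fork or E cyclin lists. Kif23, a motor of the dividing cell's midzone, stood at 30.1 CPM in tumor granulocytes, near its level in T lymphocytes (30.7 CPM), while Mki67 was at 12.4 CPM in granulocytes and 70.5 CPM in T lymphocytes. The pericyte values rested mostly on 1 library. Without the 60 min library, an alternative chosen after seeing the data, pericytes led in 0 members, T lymphocytes in 25, endothelial cells in 18 and macrophages in 1. Pericytes were at 444 CPM in the control (20 cells), 1009 CPM in the 15 min library (37 cells) and 3576 CPM in the 60 min library (95 cells), and in the latter 16 of 94 pericytes deep enough to be thinned were multi-member cells.

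Outside cells with Mki67 or Top2a, a few members were widespread. Of 19079 proximal tubule cells, 0.708% held a UMI of Mki67 or Top2a. Spc25 was found in 23.4% of proximal tubule cells, Tyms in 24.8% and Stmn1 in 38.7%, and of those cells 1.07% (0.792 to 1.42), 1.20% (0.912 to 1.56) and 0.989% (0.776 to 1.24) also held Mki67 or Top2a, above but near the share in all cells of the gate. The other members ranged widely. Mcm7 was found in 10.2% of proximal tubule cells, of which 1.95% had Mki67 or Top2a, Pcna in 8.93%, of which 2.23% had them, and Mcm6 in 7.33%, of which 2.58% had them. Those with the highest shares were in few cells. Bub1 was found in 6 proximal tubule cells, all with Mki67 or Top2a, Hmmr in 28 cells, of which 71.4% had them, and Bub1b in 17, of which 70.6% had them.

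The Spc25 level in proximal tubule cells was 32.5, 25.1 and 30.7 CPM in the control, 15 min and 60 min libraries, and intercalated cells were at 66.2, 45.3 and 26.3 CPM on 30, 13 and 27 UMIs. Kidney endothelial cells held 4.48, 1.89 and 3.31 CPM, and 1.41% of those cells had the gene, at a median of 4121 UMIs per cell against 9438 in proximal tubule cells. Tubule cells were thus above endothelial cells in every library. Tyms was at 33.6, 27.1 and 33.0 CPM in proximal tubule cells and at 25.1, 27.8 and 17.7 CPM in endothelial cells, and over the 3 libraries B lymphocytes had 4.24 CPM. In T lymphocytes of the kidney, where 10.6% of cells held Mki67 or Top2a, 60% of the cells with Spc25 and 43.1% of those with Tyms had these markers. A pseudogene named for Tyms and a related sequence named for Stmn1 are annotated, and reads shared with them could not be told apart.

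**Figure D4:**
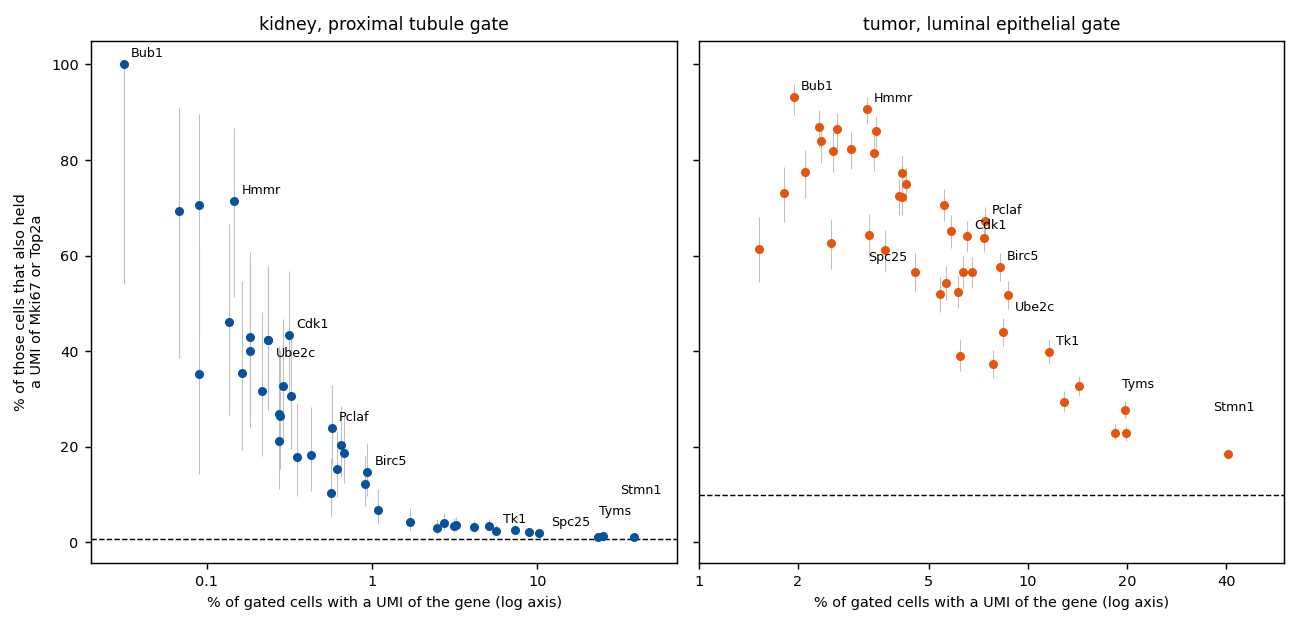
For each gene other than Mki67 and Top2a, the share of gated cells with a UMI of the gene (log axis) against the share of those cells that also held Mki67 or Top2a, with exact 95% intervals, in proximal tubule cells and luminal epithelial cells. Dashed lines give the share over all cells of the gate, 0.708 and 9.79%. Stmn1, Spc25 and Tyms lie nearest to the line in the kidney, and all genes lie above it in the tumor.

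In luminal epithelial cells of the tumor, where 9.79% of 13488 cells held Mki67 or Top2a, all 42 other members were above that share. The values ran from 18.5% for cells with Stmn1, found in 40.3% of luminal cells, to 93.1% for cells with Bub1. Spc25 was found in 4.52% of luminal cells and 56.6% of those had Mki67 or Top2a. Tyms and Mcm7 were among the loosest, at 27.8 and 22.8%, and Hmmr and Plk1 among the tightest, at 90.6 and 86.9%. These shares depend on depth, since deeper cells hold more genes of every kind.

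Platform and control libraries were compared gene by gene as a ratio of CPM, and a gene was called different at a ratio of 1.5 or more in either direction with at least 50 UMIs in both libraries together. In the kidney 15 min library, 29 of 42 members that had enough UMIs were lower than in the control and none was higher, where 27.7% of all genes were lower and 6.79% higher. The median ratio of the members was 0.458, against 0.867 over all genes. Lowest were Ube2c at 0.131 (interval 0.101 to 0.169), Top2a at 0.176 (0.143 to 0.216) and Kif23 at 0.178 (0.138 to 0.228). Highest were Tk1 at 1.11 (0.974 to 1.26), Tyms at 0.967 and Spc25 at 0.925, and Tk1 alone was above 1. Bub1 and Cdc6 had too few UMIs to be counted.

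The cell types of that library differed from the control's, and the summed level was also lower within some of them. Proximal tubule cells were at 212, 175 and 209 CPM in the control, 15 min and 60 min libraries. Stmn1 in them was at 70.8 CPM in the control and 54.1 CPM at 15 min, Tyms at 33.6 and 27.1 CPM, and Spc25 at 32.5 and 25.1 CPM. The sum of this gate without these 3 genes was not computed. T lymphocytes were at 1167, 519 and 1431 CPM, on 187, 126 and 491 cells, with Mki67 in them at 53.8, 1.23 and 58.1 CPM. Only 6, 2 and 21 of these T lymphocytes were multi-member cells. Their shares of cells deep enough to be thinned were 3.30% (1.22 to 7.04), 1.63% (0.198 to 5.75) and 4.48% (2.79 to 6.76), with intervals that overlap. Endothelial cells were at 334, 230 and 219 CPM, and macrophages at 318, 427 and 292 CPM. The endothelial cells were 629, 432 and 2757 cells, of which 3, 1 and 1 were multi-member cells. The macrophages were 891, 159 and 1594 cells, of which 5, 2 and 6 were multi-member cells. The 15 min library was thus the lowest of the 3 in proximal tubule cells and T lymphocytes and the highest in macrophages. The control's levels per type, weighted by the UMIs of each type in the 15 min library, came to 229 CPM, and the 15 min levels at the control's composition to 246 CPM, between the measured 187 and 290 CPM. Within proximal tubule cells, 3 of 34 members (Rrm2, Cdk1 and Ccnb1) were higher at 15 min and 3 (Ccna2, Cenpa and Cenpf) lower, where 10.4% of all genes were higher and 5.73% lower.

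The kidney 60 min library differed little from the control in these genes. Of 44 members 1 was higher, Cdc6 at 2.49 (1.65 to 3.87), and 1 was lower, Ccnb1 at 0.654 (0.482 to 0.888), where 19.1% of all genes were higher and 2.44% lower. After Cdc6 the highest ratios were 1.44 for Mcm3 and 1.43 for Ccne2, and after Ccnb1 the lowest were 0.674 for Cenpe and 0.760 for Kif20a. The median ratio was 1.06, against 1.14 over all genes. Within proximal tubule cells 7 of 30 members were higher (Mcm3, Pclaf, Ccne2, Cdk1, Cenpa, Mki67 and Top2a) and none lower, where 17.4% of all genes were higher and 1.55% lower. These 7 rested on few UMIs in the control, such as 26 for Top2a, and the intervals of their ratios reached down to 1.08 for Mki67 and to 0.947 for Ccne2.

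The tumor 15 min library held about the control's level. Of 44 members 2 were lower, Cdt1 at 0.582 (0.527 to 0.642) and Cenpa at 0.663 (0.629 to 0.698), and none was higher, where 6.36% of all genes were lower and 11.9% higher. Pcna followed at 0.678, and the highest ratios were 1.45 for Plk1, 1.43 for Tk1 and 1.30 for Cenpf. In luminal cells Ccne2 (0.628) and Ube2c (0.641) were lower and none was higher, where 5.54% of all genes were lower and 11.2% higher. The median ratio of the members was 1.02 over all cells and 0.955 in luminal cells, against 1.14 over all genes in both.

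In the tumor 60 min library 37 of 44 members were above a ratio of 1, with a median of 1.22, against 1.03 over all genes. The 5 called higher were Aurkb at 1.72 (1.54 to 1.94), Cdc6 at 1.66 (1.40 to 1.98), Plk1 at 1.66 (1.45 to 1.90), Tpx2 at 1.56 and Bub1 at 1.52, where 17% of all genes were higher. None was lower, where 6.98% of all genes were, and the lowest ratios were 0.831 for Cdt1, 0.868 for Ccne2 and 0.915 for Pcna. In luminal cells 39 of 44 were above 1, and 5 were called higher (Birc5 at 1.85, Cdc6, Tk1, Aurkb and Aurka) and none lower, where 6.13% of all genes were higher and 4.57% lower. Birc5 in luminal cells was at 56.2, 59.3 and 104 CPM in the control, 15 min and 60 min libraries, so that the 60 min library stood above the other 2.

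**Figure D5:**
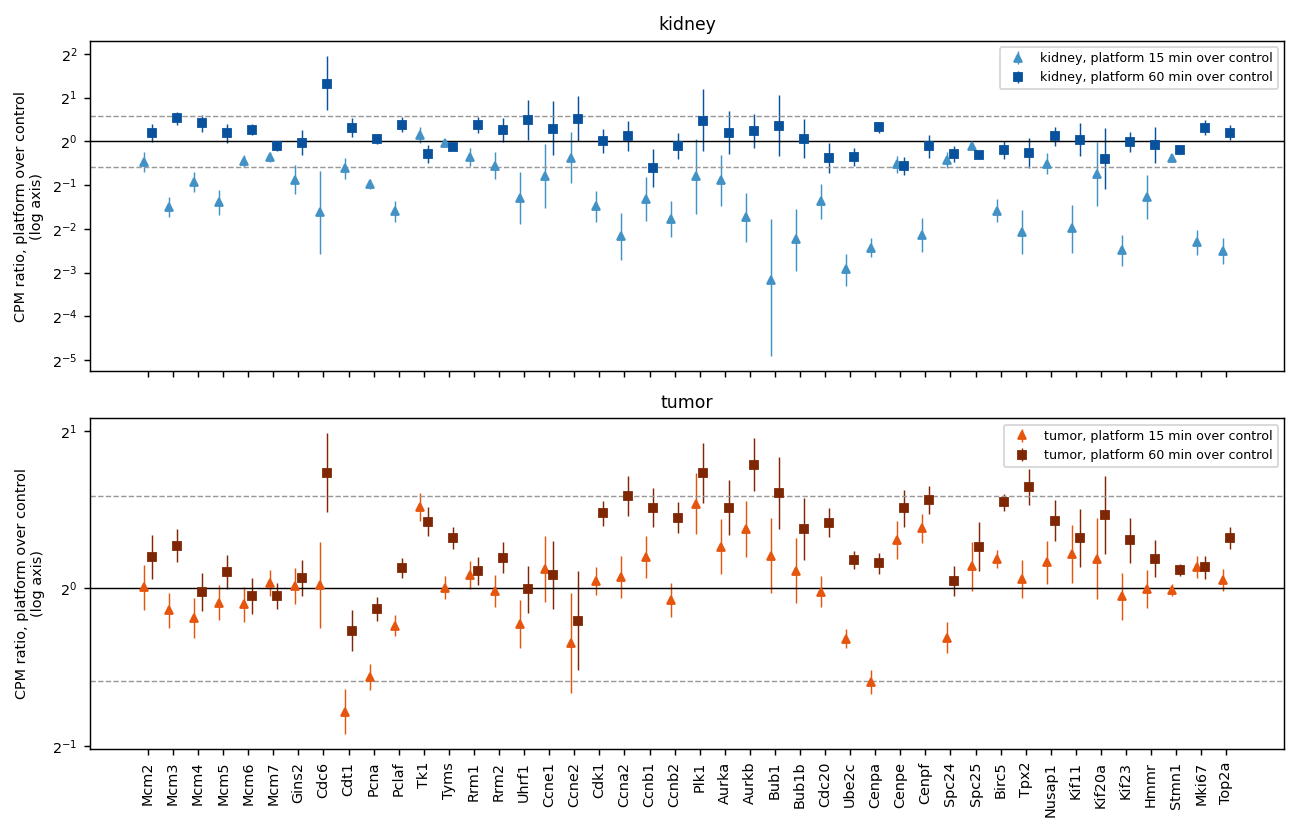
Ratio of each gene's CPM in a platform library to the control of the same tissue, on a log axis, over all kept cells, with exact 95% intervals and dashed lines at ratios of 1.5 in either direction. In the kidney 15 min library most genes lie below the lower line, and in the tumor 60 min library 37 of 44 lie above 1.

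The tumor comparisons depended on the study's limits on cells, which cover genes and mitochondrial UMIs together. Within the study's limits, 2 of 44 members in place of 26 were above 1 in the 15 min library over all cells, the median ratio was 0.777, and the sums were 411 CPM at 15 min and 534 CPM in the control. For luminal cells at 15 min, 29 of 43 members were then called lower in place of 2, at a median ratio of 0.501, where 5.08% of all genes were lower and their median ratio was 1.15. At 60 min the median ratio within the limits was 1.06 over all cells, with sums of 545 and 534 CPM, and 0.890 in luminal cells, with 17 of 43 above 1 and the summed luminal ratio at 0.984 in place of 1.21. In kidney the limits left the 15 min library below the control (165 against 243 CPM) and the 60 min library level with it (243 against 243 CPM).

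In other tumor gates, the platform libraries were above the control in some types and below it in others. Endothelial cells were at 1411, 2007 and 1626 CPM in the control, 15 min and 60 min libraries and fibroblasts at 215, 471 and 341 CPM, both lowest in the control. Multi-member cells numbered 29, 33 and 93 among these endothelial cells and only 0, 6 and 16 among the fibroblasts. Macrophages were at 926, 1089 and 1055 CPM. T lymphocytes were at 2173, 2199 and 1212 CPM, and so were lowest at 60 min, a ratio to the control of 0.558 (0.532 to 0.585). Control levels per type at the composition of the 60 min library gave 806 CPM, close to the control's own 809 CPM, and the 60 min levels at the control's composition gave 934 CPM, close to the measured 959 CPM.

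Other genes of the cell cycle were compared from lists of 73 symbols. Of 26 further mitotic genes 22 were higher in all tumor libraries than in all kidney libraries, as were 13 of 15 further replication genes and 13 of 19 regulators of the E2F, pocket protein, MuvB and FoxM1 network. Of 7 CDK inhibitors 3 were higher and of 6 D cyclins and G1 kinases 2, where 41.4% of all genes were, and their median ratios were 2.13 and 1.15, against 5.88 for the further mitotic genes. Against the trend, Cks2, a partner of cyclin-dependent kinases, was at 132, 124 and 108 CPM in kidney and at 75.2, 46.6 and 71.4 CPM in the tumor. Pttg1 (securin) was at 76.0, 55.3 and 73.2 CPM against 23.9, 17.2 and 22.9 CPM. Both were chosen for naming after their values were seen.

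In luminal multi-member cells against other luminal cells, the further mitotic genes had a median ratio of 27.3 and the further replication genes of 10.5, on genes that the choice of cells did not use. The regulators had a median of 2.16, the D cyclins and G1 kinases of 1.61 and the CDK inhibitors of 0.98. Multi-member cells had been picked on correlated genes, so this is a description of them. In the kidney 15 min library 18 of 22 further mitotic genes with enough UMIs were lower than in the control, as were 6 of 14 further replication genes, 5 of 6 CDK inhibitors, 3 of 17 regulators and 1 of 6 D cyclins and G1 kinases, beside 27.7% of all genes.

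Over gated cell types, the genes whose log level was most like the summed members were mostly further cycle genes. In the tumor, over 8 gates, they were Ncapg (Pearson's r of 0.994), Kif14 (0.993), Kif4 (0.989), Kif15 (0.987) and Kntc1 (0.986), which are condensin, motor and kinetochore genes. In kidney, over 11 gates, they were the nucleolar gene Npm1 (0.967), the lamin gene Lmnb1 (0.966), the histone genes Hist1h2ab (0.962) and Hist1h1b (0.959), and the kinetochore gene Knl1 (0.957). Among the members, Spc25 had the lowest value in kidney (-0.334), followed by Tyms (0.201), and Kif23 the lowest in the tumor (0.404). These are correlations over few points that share libraries and depth, and they carry no test.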

How the data were processed

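The authors aligned reads to mm10 and counted UMIs with Cell Ranger 3.1.0, per the labels, and ran its aggregation on each tissue, by which read depth is evened out between libraries and some UMIs are lost for good. The deposited values were UMI counts in whole numbers for the cells that the study counts as sequenced, before its limits on genes and mitochondrial UMIs. Cells were taken to libraries by barcode suffix and kept with at least 200 genes. UMIs were summed per library and per gate and scaled to 1000000 UMIs of the same cells (CPM). Sums carry exact Poisson intervals, ratios of sums exact conditional binomial intervals and shares Clopper-Pearson intervals, all at 95% and for counting error only. For shares of multi-member cells, each cell was thinned to 2000 UMIs (seed 7) and shallower cells were left out. Values were given for the 3 genes of each role list with the most UMIs (both genes in lists of 2) and for the 3 highest and 3 lowest ratios per platform library among genes with at least 50 UMIs. Likeness used log2(CPM + 1) in gates of at least 100 cells. The genes, gene lists, gates and rules were chosen with earlier results of these data known. With 1 library per condition no test was made. The scripts were tested on simulated data with known changes. Gene models came from GENCODE M21 and promoters from RefSeq (GRCm38.p6). All 44 genes had a model, of which 10 overlap an exon of a gene on the other strand and 5 have a pseudogene or related copy named for them. Python 3.11.15, NumPy 2.4.6, SciPy 1.17.1, pandas 2.3.3 and matplotlib 3.10.9 were used. Alternatives were the study's limits on cells, all deposited cells, CPM without mitochondrial UMIs, sums without named genes, other thinning depths and member numbers, stricter gates, cells of 2 lineages left out, the tumor 60 min library left out, a minimum of 20 UMIs and a ratio of 2.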

Additional observations from a re-analysis of the deposited data

Results flagged for a closer look

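In 3 results both platform libraries of one tissue moved one way from their control and both of the other tissue moved the opposite way. The search covered the 44 genes over all cells and their sums in gated types. The share of all genes that meet the same rule was not computed. Ccnb1, the cyclin of mitotic entry, had platform to control ratios of 0.402 (15 min) and 0.654 (60 min) in kidney and of 1.15 and 1.43 in the tumor. These ratios are over all cells, and within kidney proximal tubule cells Ccnb1 was called higher at 15 min than in the control. Cenpe, a kinetochore motor, had ratios of 0.694 and 0.674 in kidney and of 1.24 and 1.42 in the tumor. The 44 genes summed in endothelial cells had ratios of 0.687 and 0.655 in kidney and of 1.42 and 1.15 in the tumor. Few kidney endothelial cells were multi-member cells, with 3, 1 and 1 in the control, 15 min and 60 min libraries, against 29, 33 and 93 in the tumor. Each pair of platform libraries shares its control, and these differences between the tissues were not tested.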

How the results depend on the processing

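No paired analysis was possible because each condition had 1 library and no result came from a test. Of the summed levels, S to G2/M ratios, shares of multi-member cells and counts of genes recomputed under the alternatives, 162 values moved by less than the 95% counting interval or 1.5 times a count, 70 moved further and 5 crossed 1 from an interval that had excluded it. Values whose own interval held 1 could pass it and are not among the 5. The summed kidney 60 min ratio, 0.986 as reported, reached 1.07. The multi-member share ratio of proximal tubule cells at 15 min, 0.863 as reported, reached 3.31. Keeping every deposited cell, stricter gates, 8 members as the limit, the 60 min controls alone and leaving out the kidney 15 min library moved none of those they were run on, and the cause of the moves below was not tested.

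Within the limits that the study set on cells, the summed ratio to the control was 0.677 for kidney 15 min, 0.770 for tumor 15 min, 1.02 for tumor 60 min, 1.05 for proximal tubule cells at 60 min, 0.676 for luminal cells at 15 min and, now below 1, 0.984 for luminal cells at 60 min, and the tumor to kidney control ratio was 2.20. The S to G2/M ratios were 1.43, 1.74 and 1.58 in the kidney control, 15 min and 60 min libraries and 0.925, 1.02 (now above 1) and 0.9001 in the tumor's. The 15 min to control ratio of the share of multi-member cells was 0.654 in the tumor and 0.294 in luminal cells. Genes lower than the control were 19 in kidney 15 min, 0 in its proximal tubule cells, 2 in kidney 60 min, 1 in its proximal tubule cells, 10 in tumor 15 min, 29 in its luminal cells and 3 in luminal cells at 60 min. Genes higher were 1 in proximal tubule cells at 15 min, 5 in kidney 60 min, 0 in its proximal tubule cells, 1 in tumor 60 min and 0 in its luminal cells, where Cdc6, Aurka and Aurkb turned to 0.862, 0.991 and 0.890. Fewer kidney genes then had enough UMIs, 29 in place of 42 at 15 min and 38 in place of 44 at 60 min. In proximal tubule cells they were 16 in place of 34 at 15 min and 13 in place of 30 at 60 min. The share of all genes called was recomputed only for luminal cells at 15 min within these limits, and under no other alternative.

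Without mitochondrial UMIs, the summed ratio was 0.694 for kidney 15 min, 1.02 for kidney 60 min, 1.17 for tumor 60 min, 2.67 for tumor over kidney control, 0.906 and 1.02 for proximal tubule cells at 15 and 60 min and 0.907 for luminal cells at 15 min, and 0 members were lower in kidney 60 min and in proximal tubule cells at 15 min. Without Stmn1, Pcna, Rrm1 and the Mcm genes, the summed ratio was 0.603 for kidney 15 min, 0.996 and 1.25 for tumor 15 and 60 min, 3.64 for tumor over kidney control and 0.907 and 1.29 for luminal cells at 15 and 60 min, and the S to G2/M ratio was 0.480, 0.807 and 0.516 in kidney, now below 1, and 0.361, 0.347 and 0.320 in the tumor. Without Stmn1 alone, the summed ratio was 0.605 and 1.02 for kidney 15 and 60 min, 1.20 for tumor 60 min, 3.14 for tumor over kidney control, 0.859 for proximal tubule cells at 15 min and 0.907 and 1.23 for luminal cells at 15 and 60 min. Without Stmn1, Tyms and Spc25, an alternative chosen after seeing the data, it was 0.495 and 1.07 for kidney 15 and 60 min, 1.20 for tumor 60 min and 3.92 for tumor over kidney control. Without cells of 2 lineages it was 0.960 for proximal tubule cells at 60 min and 0.948 and 1.14 for luminal cells at 15 and 60 min.

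Without thinning, the ratio of the share of multi-member cells was 0.637 for kidney 15 min over control, 3.33 for tumor over kidney control and 0.907 for luminal cells at 15 min. With 3 members as the limit tumor over kidney control was 4.64, and with 1000 UMIs per cell proximal tubule cells at 15 min were at 3.31. At a ratio of 2, 0 genes were called lower in proximal tubule cells at 15 min, in kidney 60 min, in tumor 15 min and in its luminal cells, and 0 higher in proximal tubule cells at 60 min, in tumor 60 min and in its luminal cells. With a minimum of 20 UMIs, 3 genes were lower in proximal tubule cells at 60 min. Shares of multi-member cells in gates of few such cells, among them the kidney gates, are limited by their number.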
